A study of Mus musculus with 24 samples.

Results

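The light-sensing proteins of the mouse retina that do not form images, and genes of the ganglion cells that carry melanopsin, were compared across 8 inbred strains. The 7 members were Opn4, Opn3, Opn5, Rrh, Rgr, Eomes and Adcyap1, taken by gene symbol from the 28,802 genes of the deposited table. Retinas of wild type mice at postnatal day 28 were sequenced as 24 libraries, 3 for each strain. The strains were 129S1/Svlmj, C57BL/6J, NOD/ShiLtJ, A/J, PWK/PhJ, WSB/EiJ, NZO/HlLtJ and CAST/EiJ, the founder strains of the Collaborative Cross, of which PWK/PhJ, WSB/EiJ and CAST/EiJ are wild-derived. The study used these strains to look for genes that go with the refractive state of the eye, and its measurements of vision were not used here.

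Melanopsin, the product of Opn4, makes a small class of retinal ganglion cells sensitive to light. These cells set the body clock and drive the pupil reflex, and they signal through a G protein, a phospholipase C and TRPC cation channels, as the photoreceptors of flies do. Eomes encodes a T-box transcription factor that their formation and upkeep need, and Adcyap1 encodes PACAP, the neuropeptide that they release together with glutamate in the brain. Opn3 (encephalopsin) and Opn5 (neuropsin, sensitive to violet light) are opsins of other neurons. Rrh (peropsin) and Rgr (retinal G protein-coupled receptor) bind all-trans-retinal and belong to the pigment epithelium, with Rgr also in Müller glia, and RGR protein returns retinal to the 11-cis form in light.

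Values are cpm, the reads of a gene scaled to a common number of reads per library. Over all genes of the table they summed to between 332,472 cpm (WSB/EiJ replicate 2) and 366,570 cpm (NOD/ShiLtJ replicate 1). Most reads of the total used for scaling were thus not assigned to these genes, and this share differed between libraries. The totals implied by the size of 1 read lay between 57,577,000 and 78,131,000 reads (median 68,922,000). A value of 3 reads, taken as the limit of detection, was 0.0384 to 0.0521 cpm, which covers counting error only. Levels of different genes can be compared only per length. Per kilobase of merged exons the mean over all libraries was 2.56 cpm per kilobase for Rgr, 1.53 for Rrh, 0.486 for Eomes, 0.241 for Adcyap1, 0.228 for Opn4, 0.128 for Opn3 and 0.0142 for Opn5. The order turned with the length used. Per kilobase of the longest annotated transcript, a scale added after the data were seen, it was 3.003 for Rrh, 2.61 for Rgr, 0.567 for Eomes, 0.314 for Opn4 and 0.269 for Adcyap1, with Opn3 and Opn5 as before. The tissue carried its own markers, with the rod arrestin gene Sag at a mean of 1639 cpm.

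Before the strains are compared, 3 libraries must be set apart. Summed over 12 lens genes, replicate 2 of 129S1/Svlmj held 1479 cpm, replicate 2 of NOD/ShiLtJ 1658 cpm and replicate 2 of C57BL/6J 208 cpm, against 19.9 to 93.9 cpm in the other 21 libraries. The most abundant lens gene, the crystallin gene Cryaa, had a mean of 74.3 cpm, and Hmgn3, which the retina also expresses, made up 15.6 to 19.5 cpm of the sum in the strain means. Member calls, list counts and extreme strains that differ without these 3 libraries are given both ways.

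Differences between strains were tested with limma on log2(cpm + 0.1) over 20,447 genes, those whose mean reached 0.1 cpm, and a gene is called at a Benjamini-Hochberg adjusted p under 0.05. Of the 7 members, 6 reached that mean, and Opn5 did not. By the F-test over the 8 strains 6 of the 6 were called, where 79.2% of all genes tested were, so a call by this test is common in these strains. With the further demand that the highest strain mean be at least 2 times the lowest, 2 of the 6 were called (Rgr and Opn3), against 30.4% of all genes. The median ratio of highest to lowest strain mean was 1.76 over the 6 members and 1.59 over all genes tested.

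Each strain was then set against the mean of the other 7 strains. In 129S1/Svlmj 3 of the 6 members were called, all higher (30.9% of all genes were called there in either direction), and 1 without the 3 lens-rich libraries. In C57BL/6J it was 1 member, higher (27.3% of all genes), and in NOD/ShiLtJ 1 member, lower (28% of all genes), and 0 without the lens-rich libraries. A/J had 1 higher and 2 lower (31.5% of all genes), PWK/PhJ 1 higher and 2 lower (50.1%), and WSB/EiJ 1 higher and 2 lower (36.8%). NZO/HlLtJ had 2 lower (29.7% of all genes) and CAST/EiJ 1 higher and 2 lower (50.1%). The shares of all genes stand as the background for the strain counts of lists below as well. These 8 comparisons share libraries, and pairs of strains were not tested. Reads of all strains were aligned to GRCm38, whose reference strain is C57BL/6J. How well reads of the other strains, the wild-derived ones among them, were assigned to each gene was not tested. The p-values measure the spread between libraries, which the study treats as biological replicates.

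**Figure D1:**
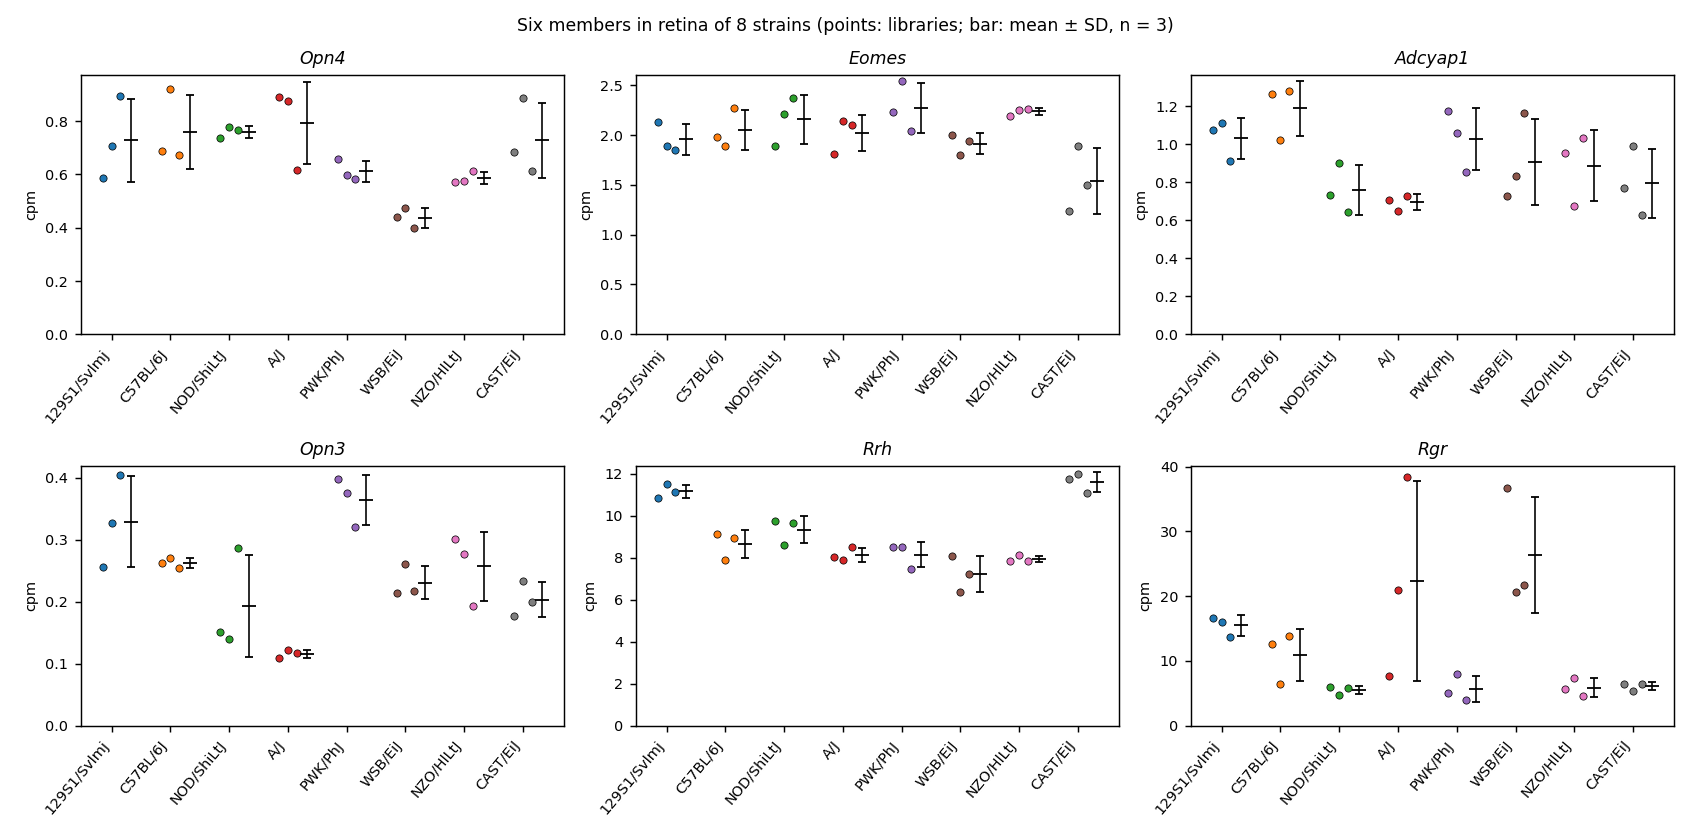
Level in cpm (y axis) of the 6 tested members in the 8 strains (x axis), with 1 point per library and the mean with its SD (n = 3) beside the points. WSB/EiJ lies at the bottom for Opn4, A/J at the bottom for Opn3, CAST/EiJ and 129S1/Svlmj at the top for Rrh, and the A/J libraries are spread from 7.65 to 38.4 cpm for Rgr.

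Opn4, the melanopsin gene (chr14:34590618-34600142, minus strand, GRCm38), was lower in WSB/EiJ than in the other strains. Its values in the 3 libraries were 0.440, 0.474 and 0.399 cpm in WSB/EiJ, 0.571, 0.575 and 0.612 in NZO/HlLtJ, 0.657, 0.597 and 0.582 in PWK/PhJ, and 0.685, 0.886 and 0.614 in CAST/EiJ. They were 0.585, 0.708 and 0.894 cpm in 129S1/Svlmj, 0.735, 0.779 and 0.767 in NOD/ShiLtJ, 0.687, 0.921 and 0.673 in C57BL/6J, and 0.891, 0.874 and 0.617 in A/J. The 3 WSB/EiJ libraries lay below the other 21, and every other strain overlapped its neighbours in the order of means. The WSB/EiJ mean was 0.438 ± 0.0371 cpm (SD, n = 3) and the highest, in A/J, 0.794 ± 0.154 cpm, a ratio of 1.82 (F-test, adjusted p = 0.00348). Against the other 7 strains the log2 difference in WSB/EiJ was -0.58 ± 0.12 (SE, adjusted p = 0.000503, 3 of 3 libraries lower). The level rested on 23.0 to 72.0 reads per library. A gene on the opposite strand, Gm49012, shares 4.39% of the exon bases and did not exceed 0.0348 cpm in any library.

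In whole retina, fewer cells of a type and less RNA per cell cannot be told apart. Markers of all ganglion cells were therefore set beside Opn4. Of 22 such genes, 20 were called by the F-test (90.9%) and 2 at 2-fold or more, Jam2 and Nefh, with a median ratio of 1.50. With the lens-rich libraries left out 19 were called, and 3 at 2-fold or more with Thy1 added. In WSB/EiJ 5 of the 22 were called higher and 2 lower (9 and 1 with median-ratio scaling, 8 and 1 with quantile-normalized values, 3 and 2 without the lens-rich libraries). Of the 22, 0 were called higher without its replicate 1 or 3 and 3 without its replicate 2, and 1 to 2 lower in the 24 fits without 1 library. Their summed level was 453, 418 and 461 cpm. The sum was 459 to 487 cpm in 129S1/Svlmj, 473 to 510 in C57BL/6J, 465 to 490 in NOD/ShiLtJ, 409 to 417 in A/J, 415 to 458 in PWK/PhJ and 412 to 423 in NZO/HlLtJ. Divided by this sum, Opn4 was again lowest in WSB/EiJ, at 0.0990 ± 0.0134 per 100 cpm of the list (SD, n = 3), while the highest mean passed from A/J (0.192 ± 0.0378) to CAST/EiJ (0.208 ± 0.0412). The most abundant gene of the list, Nefl, a neurofilament gene, averaged 126 cpm.

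CAST/EiJ had the lowest ganglion cell markers, in values from reads aligned to the C57BL/6J reference. Their sum was 351, 348 and 350 cpm in its 3 libraries, below the 21 others, and 16 of the 22 genes were called lower and 1 higher, with a median log2 difference of -0.30 (16 and 3 with median-ratio scaling, 15 and 3 with quantile-normalized values, 13 to 16 and 1 to 2 in the fits without 1 library, the 2 without its replicate 3). The median over all genes tested was within 0.1 of 0 in each strain. Thy1, a surface glycoprotein gene, was at 16.8 cpm in CAST/EiJ against 33.5 cpm in C57BL/6J, and Rbpms2, an RNA-binding protein gene, was at 2.19 cpm against 4.28 cpm in NOD/ShiLtJ. Nefh, for the heavy neurofilament subunit, was at 17.8 cpm in CAST/EiJ and 38.5 cpm in NOD/ShiLtJ. Jam2, a junctional adhesion molecule gene, was instead lowest in PWK/PhJ, at 27.2 cpm, and highest in NOD/ShiLtJ, at 61.3 cpm.

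Eomes, the T-box factor gene (chr9:118478212-118486132, plus strand), was lower in CAST/EiJ. Its 3 values there were 1.23, 1.89 and 1.50 cpm. They were 2.001, 1.80 and 1.94 cpm in WSB/EiJ, 2.13, 1.89 and 1.85 in 129S1/Svlmj, 1.81, 2.14 and 2.10 in A/J, and 1.98, 1.89 and 2.27 in C57BL/6J. In NOD/ShiLtJ they were 1.89, 2.22 and 2.37 cpm, in NZO/HlLtJ 2.20, 2.26 and 2.26, and in PWK/PhJ 2.23, 2.54 and 2.04. Neighbouring strains overlapped throughout, and replicate 2 of CAST/EiJ lay within the range of WSB/EiJ. The strain means ran from 1.54 ± 0.329 cpm (SD, n = 3) in CAST/EiJ to 2.27 ± 0.251 cpm in PWK/PhJ, a ratio of 1.47 (F-test, adjusted p = 0.0104). The log2 difference of CAST/EiJ from the other 7 strains was -0.43 ± 0.09 (SE, adjusted p = 0.000619, 3 of 3 libraries lower). Without replicate 1 of CAST/EiJ the F-test was not passed (adjusted p = 0.0888), and the difference was -0.29 (adjusted p = 0.0281). Divided by the ganglion cell sum, CAST/EiJ was no longer lowest, at 0.441 ± 0.0960 per 100 cpm of the list, between C57BL/6J at 0.412 ± 0.0370 and NZO/HlLtJ at 0.538 ± 0.0166. The lowest C57BL/6J value, 0.372, came from its lens-rich replicate 2. Without the lens-rich libraries WSB/EiJ had the lowest mean, at 0.431 ± 0.0101, with C57BL/6J and 129S1/Svlmj close above it. The part of the ganglion cell markers in the CAST/EiJ difference was not tested further.

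Adcyap1, the PACAP gene (chr17:93199017-93206537, plus strand), was highest in C57BL/6J and lowest in A/J. The values were 1.26, 1.02 and 1.28 cpm in C57BL/6J, 1.07, 1.11 and 0.910 in 129S1/Svlmj, 1.18, 1.06 and 0.852 in PWK/PhJ, and 0.728, 0.836 and 1.16 in WSB/EiJ. They were 0.952, 0.676 and 1.04 cpm in NZO/HlLtJ, 0.768, 0.989 and 0.627 in CAST/EiJ, 0.735, 0.900 and 0.642 in NOD/ShiLtJ, and 0.708, 0.648 and 0.728 in A/J. Each strain overlapped the next in the order, while the 3 libraries of C57BL/6J lay above the 3 of A/J. The means were 1.19 ± 0.143 and 0.694 ± 0.0417 cpm (SD, n = 3), a ratio of 1.71 (F-test, adjusted p = 0.0178). Against the other 7 strains the log2 difference was 0.42 ± 0.14 in C57BL/6J (SE, adjusted p = 0.0223, 3 of 3 libraries higher) and -0.37 ± 0.14 in A/J (adjusted p = 0.0429, 3 of 3 lower). Without the lens-rich libraries NOD/ShiLtJ was lowest, at 0.689 cpm. The C57BL/6J call was lost without its replicate 1 (adjusted p = 0.111) or 3 (adjusted p = 0.126). The A/J call was lost in 11 of the 24 fits that left out 1 library (largest adjusted p = 0.179, without A/J replicate 2) and with no filter on the mean (adjusted p = 0.0612). Divided by the ganglion cell sum, Adcyap1 was again highest in C57BL/6J, at 0.240 ± 0.0341 per 100 cpm of the list (SD, n = 3), with PWK/PhJ at 0.235 ± 0.0267 and CAST/EiJ at 0.227 ± 0.0530. The lowest mean passed from A/J, at 0.168 ± 0.00841, to NOD/ShiLtJ, at 0.159 ± 0.0313.

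Downstream of melanopsin, 14 of 17 signalling genes were called by the F-test (82.4%), 2 of them, Trpc6 and Gna14, at 2-fold or more, with a median ratio of 1.39 (16 called and the same 2 without the lens-rich libraries). Trpc6, for a cation channel, stood at 2 levels. Its means were 4.99 to 5.24 cpm in C57BL/6J, NOD/ShiLtJ, A/J and NZO/HlLtJ and 1.62 to 1.97 cpm in 129S1/Svlmj, PWK/PhJ, WSB/EiJ and CAST/EiJ (F-test, adjusted p = 2.09e-13). No library of the first 4 strains was under 4.58 cpm and none of the others over 2.39 cpm. Gna14, for a G protein alpha subunit of the Gq class, was highest in A/J (0.985 ± 0.149 cpm, SD, n = 3) and lowest in PWK/PhJ (0.239 ± 0.0762 cpm). In WSB/EiJ, where Opn4 was lowest, 1 of the 17 was called higher and 6 lower, where 36.8% of all genes were called in either direction (3 and 5 with median-ratio scaling, 3 and 6 with quantile-normalized values, 2 and 6 without the lens-rich libraries, 1 to 2 and 5 to 6 in the 24 fits without 1 library). In CAST/EiJ 1 was called higher and 9 lower, against 50.1% of all genes (1 and 7 under both other scalings, 1 and 8 without the lens-rich libraries, 1 and 7 to 10 in the fits without 1 library).

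Of 6 transcripts known from melanopsin cells, 6 were called by the F-test and 3, Trpc6, Gna14 and Baiap3, at 2-fold or more, with a median ratio of 2.48. A/J had 5 of them higher and 1 lower, with a median log2 difference of 0.49, and these counts were the same under both other scalings. Besides Trpc6 and Gna14, which like Trpc7 belong to both lists, the higher ones in A/J were Rasgrp1, an activator of Ras (8.63 ± 0.213 cpm, SD, n = 3, against 5.15 ± 0.426 cpm in NOD/ShiLtJ, the lowest), Baiap3, a gene for vesicle release (2.81 ± 0.0900 cpm), and the T-box gene Tbx20 (1.86 ± 0.0996 cpm), which was named after its values were seen. Baiap3 was at 3.08 cpm in NZO/HlLtJ and 1.03 cpm in 129S1/Svlmj. The lower one in A/J was Trpc7, a channel gene, at 1.02 ± 0.145 cpm, against 2.02 ± 0.0427 cpm in PWK/PhJ. In WSB/EiJ 0 were higher and 2 lower. The lower call of Trpc7 in A/J was lost without replicate 1 or 3 of A/J.

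PACAP acts through receptors that it shares in part with the peptide VIP and that raise cyclic AMP. Of 16 genes for these receptors, VIP, adenylyl cyclases and peptide processing, 15 were called by the F-test (93.8%) and 2, Vip and Vipr1, at 2-fold or more, with a median ratio of 1.37 (16 called and the same 2 without the lens-rich libraries). Vip, made by amacrine cells, ranged from 1.38 ± 0.101 cpm (SD, n = 3) in CAST/EiJ to 5.88 ± 0.211 cpm in 129S1/Svlmj, with the 3 libraries of each apart from the other's (adjusted p = 1.02e-10). Vipr1, a receptor gene, was also lowest in CAST/EiJ, at 0.136 ± 0.0240 cpm, and highest in PWK/PhJ, at 0.541 ± 0.111 cpm. The cyclase gene Adcy6 ranged from 31.3 cpm in CAST/EiJ to 57.7 cpm in PWK/PhJ, Adcy2 from 14.9 cpm in A/J to 23.9 cpm in PWK/PhJ, and Adcy1, the most abundant of the list at a mean of 196 cpm, from 170 cpm in NZO/HlLtJ to 217 cpm in CAST/EiJ. Adcy6 was highest in NOD/ShiLtJ (58.8 cpm) and Adcy1 lowest in C57BL/6J (165 cpm) without the lens-rich libraries. In CAST/EiJ 2 of the 16 were called higher and 9 lower (2 and 8 under both other scalings, and 1 higher without its replicate 1 or 2). Adcyap1r1, the receptor gene specific to PACAP and named after its values were seen, was among the higher ones, at 2.36 ± 0.0974 cpm against 1.63 to 2.21 cpm on average in the other strains.

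**Figure D2:**
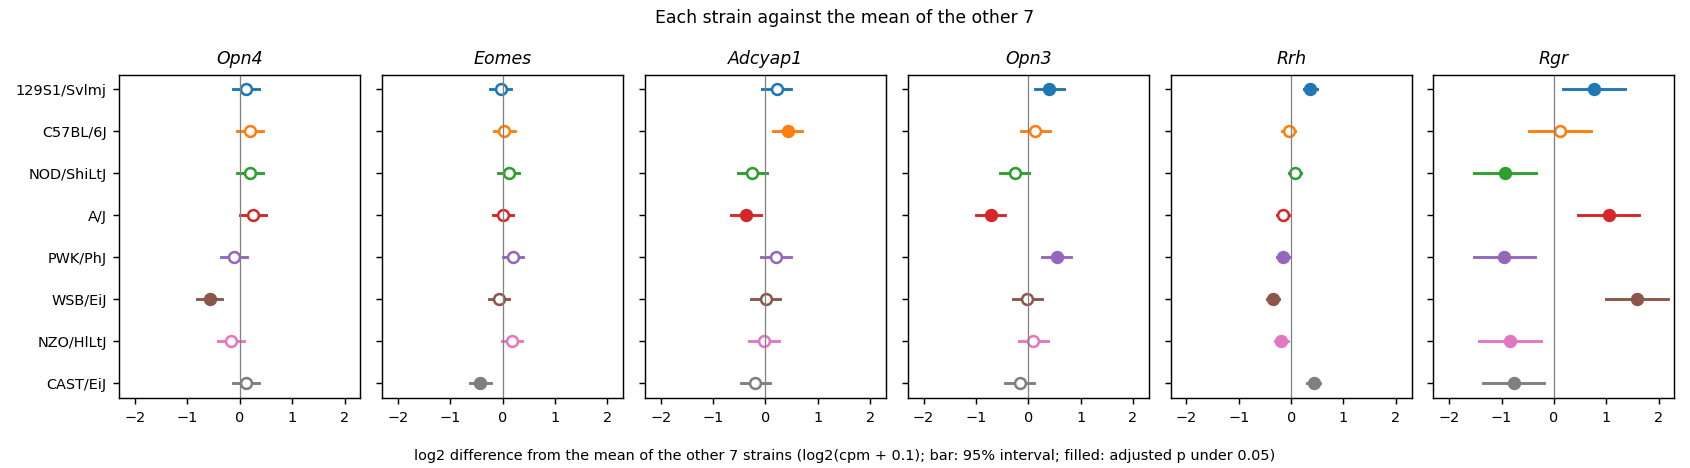
Difference on the log2 scale (x axis) between each strain (y axis) and the mean of the other 7 for the 6 tested members, with 95% intervals, filled where the adjusted p was under 0.05. Rgr has 7 filled points and the widest intervals, Rrh 5 filled points between -0.35 and 0.43, and Opn4 and Eomes 1 each.

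Opn3, the encephalopsin gene (chr1:175662421-175692776, minus strand), was lowest in A/J. Its values were 0.108, 0.122 and 0.118 cpm in A/J, 0.151, 0.140 and 0.287 in NOD/ShiLtJ, 0.177, 0.233 and 0.199 in CAST/EiJ, and 0.215, 0.261 and 0.217 in WSB/EiJ. They were 0.301, 0.277 and 0.194 cpm in NZO/HlLtJ, 0.263, 0.271 and 0.254 in C57BL/6J, 0.257, 0.327 and 0.404 in 129S1/Svlmj, and 0.398, 0.376 and 0.320 in PWK/PhJ. The A/J libraries lay below the other 21, and the other strains overlapped their neighbours. The mean was 0.116 ± 0.00683 cpm in A/J and 0.365 ± 0.0401 cpm in PWK/PhJ (SD, n = 3), a ratio of 3.14 (F-test, adjusted p = 0.000226). The log2 difference from the other 7 strains was -0.72 ± 0.13 in A/J (SE, adjusted p = 0.000222, 3 of 3 libraries lower), 0.54 ± 0.13 in PWK/PhJ (adjusted p = 0.00184, 3 of 3 higher) and 0.40 ± 0.13 in 129S1/Svlmj (adjusted p = 0.0279, 3 of 3 higher). The 129S1/Svlmj call was lost without its replicate 2 (adjusted p = 0.0846) or 3 (adjusted p = 0.237), without the 3 lens-rich libraries (adjusted p = 0.103) and with quantile-normalized values (adjusted p = 0.0769).

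The values of Opn3 were 7.4 to 26 reads per library. Of the 24, 4 lay within 0.1 of a whole read, where 24 of 24 did for Opn4, Eomes and Adcyap1. On the same strand Opn3 shares 461 exon bases, 24.1% of its own, with Chml, a gene for an escort protein of Rab GTPases. Chml was at a mean of 8.75 ± 0.835 cpm (SD, n = 3) in PWK/PhJ, 8.37 ± 0.851 in 129S1/Svlmj, 7.36 ± 0.312 in C57BL/6J, 7.09 ± 0.131 in NZO/HlLtJ, 6.66 ± 0.582 in CAST/EiJ, 6.59 ± 0.726 in NOD/ShiLtJ, 5.88 ± 0.567 in WSB/EiJ and 5.57 ± 0.190 in A/J. The first 4 strains and the last came in the same order for both genes, and the part of Chml reads in the Opn3 values was not tested.

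Opn5, the neuropsin gene (chr17:42556783-42611395, minus strand), was at 0 to 4 reads per library, with a mean of 0.0270 cpm. It was listed at 0 in 3 libraries, replicates 1 and 2 of A/J and replicate 1 of WSB/EiJ. At this depth no fold is given. Fitted without the limit on the mean, over 28,802 genes, it was not called (F-test, adjusted p = 0.207).

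Rrh, the peropsin gene (chr3:129804408-129822587, minus strand), was highest in CAST/EiJ and 129S1/Svlmj. Its values were 11.8, 12.0 and 11.1 cpm in CAST/EiJ, 10.9, 11.5 and 11.1 in 129S1/Svlmj, 9.74, 8.58 and 9.64 in NOD/ShiLtJ, and 9.12, 7.87 and 8.95 in C57BL/6J. They were 8.50, 8.49 and 7.45 cpm in PWK/PhJ, 8.02, 7.87 and 8.50 in A/J, 7.86, 8.11 and 7.86 in NZO/HlLtJ, and 8.08, 6.38 and 7.22 in WSB/EiJ. The 6 libraries of CAST/EiJ and 129S1/Svlmj overlapped each other and lay above the rest, which overlapped from strain to strain. The means ran from 7.23 ± 0.850 cpm (SD, n = 3) in WSB/EiJ to 11.6 ± 0.470 cpm in CAST/EiJ, a ratio of 1.61 (F-test, adjusted p = 2.13e-07). The log2 difference from the other 7 strains was 0.43 in CAST/EiJ (adjusted p = 1.59e-06), 0.37 in 129S1/Svlmj (adjusted p = 3.85e-05), -0.35 in WSB/EiJ (adjusted p = 6.23e-05), -0.19 in NZO/HlLtJ (adjusted p = 0.0201) and -0.15 in PWK/PhJ (adjusted p = 0.0431), each with an SE of 0.06 and 3 of 3 libraries in its direction. The NZO/HlLtJ call was lost without any 1 of its 3 libraries (largest adjusted p = 0.0892). The PWK/PhJ call was lost in 12 of the 24 fits that left out 1 library (largest adjusted p = 0.340, without PWK/PhJ replicate 3), with no filter (adjusted p = 0.05004) and without a variance trend (adjusted p = 0.0527).

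Rgr, the retinal G protein-coupled receptor gene (chr14:37034909-37048964, minus strand), varied most of the 6 tested members, both between strains and within some of them. Its values were 36.6, 20.6 and 21.7 cpm in WSB/EiJ, 7.65, 20.9 and 38.4 in A/J, 16.7, 16.0 and 13.7 in 129S1/Svlmj, and 12.7, 6.37 and 13.8 in C57BL/6J. They were 6.47, 5.34 and 6.36 cpm in CAST/EiJ, 5.67, 7.37 and 4.60 in NZO/HlLtJ, 4.97, 7.97 and 4.00 in PWK/PhJ, and 6.01, 4.71 and 5.73 in NOD/ShiLtJ. The libraries of WSB/EiJ and 129S1/Svlmj lay above the 12 of CAST/EiJ, NZO/HlLtJ, PWK/PhJ and NOD/ShiLtJ, which overlapped, while A/J spanned most of the range. The means ran from 5.49 ± 0.683 cpm (SD, n = 3) in NOD/ShiLtJ to 26.3 ± 8.95 cpm in WSB/EiJ, a ratio of 4.80 (F-test, adjusted p = 1.45e-05). Without the lens-rich libraries PWK/PhJ was lowest, at 5.65 cpm, and NOD/ShiLtJ was at 5.87 cpm. Without replicate 1 of WSB/EiJ the highest mean was that of A/J, at 22.3 cpm, with a ratio of 4.07. With a log2 difference of 1.58 ± 0.28 from the other 7 strains (SE, adjusted p = 0.000118, 3 of 3 libraries higher), WSB/EiJ was called also in each of the 24 fits that left out 1 library.

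The other Rgr calls were less firm. Each has an SE of 0.28. In A/J the log2 difference was 1.04 (adjusted p = 0.00699, 2 of 3 libraries higher). It was 1.67 without replicate 1 of A/J, and the call was lost without replicate 2 (adjusted p = 0.0547) or replicate 3 (log2 difference 0.51, adjusted p = 0.207). In 129S1/Svlmj it was 0.76 (adjusted p = 0.0462, 3 of 3 libraries higher), lost in 16 of the 24 fits without 1 library and without the 3 lens-rich libraries (adjusted p = 0.144). It was also lost with a pseudocount of 1 (adjusted p = 0.0560), no filter (adjusted p = 0.0558) and no variance trend (adjusted p = 0.0780). In PWK/PhJ it was -0.95 (adjusted p = 0.00799, 3 of 3 lower), lost without its replicate 3 (adjusted p = 0.0878). In NOD/ShiLtJ it was -0.93 (adjusted p = 0.0162, 3 of 3 lower), lost without its replicate 2 (adjusted p = 0.0894) or 3 (adjusted p = 0.0515) and without the lens-rich libraries (adjusted p = 0.0560). In NZO/HlLtJ it was -0.84 (adjusted p = 0.0280, 3 of 3 lower), lost without its replicate 1 (adjusted p = 0.103) or 3 (adjusted p = 0.165) and without a variance trend (adjusted p = 0.0522). In CAST/EiJ it was -0.77 (adjusted p = 0.0279, 3 of 3 lower), lost without any 1 of its libraries (largest adjusted p = 0.118).

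Markers of the pigment epithelium, the layer that lies against the retina and can be carried along in dissection, moved in part with Rgr. Of 17 such genes 16 were tested, 15 were called by the F-test (93.8%) and 14 at 2-fold or more (87.5%), with a median ratio of 5.16 (without the lens-rich libraries 15 by the F-test and, with Enpp2 added, 15 at 2-fold or more). Summed over the 17 genes, the level was 102, 72.4 and 75.7 cpm in WSB/EiJ, 53.6, 83.1 and 90.8 in A/J, 77.9, 96.1 and 80.9 in 129S1/Svlmj, and 70.0, 47.9 and 68.8 in C57BL/6J. It was 30.4, 27.3 and 31.0 cpm in CAST/EiJ, 58.5, 55.9 and 46.7 in NZO/HlLtJ, 29.1, 35.6 and 24.2 in PWK/PhJ, and 99.3, 66.5 and 65.5 in NOD/ShiLtJ. CAST/EiJ and PWK/PhJ were lowest for the sum as they were low for Rgr. NOD/ShiLtJ, lowest for Rgr, was among the high strains for the sum but not for every marker. Of its sum, 18.1 cpm on average was the keratin gene Krt18, at 2.70 to 20.2 cpm in the strain means, and its replicate 1 held 17.3 cpm of the pigment gene Dct and 12.1 cpm of Pmel. Over the 16 genes tested, the median log2 difference from the other 7 strains was 0.67 in WSB/EiJ, 0.48 in 129S1/Svlmj, 0.44 in A/J, 0.39 in NOD/ShiLtJ, 0.17 in C57BL/6J, -0.47 in NZO/HlLtJ, -0.76 in CAST/EiJ and -0.83 in PWK/PhJ. Without the lens-rich libraries it was 0.60 in WSB/EiJ, 0.44 in NOD/ShiLtJ, 0.43 in C57BL/6J, 0.42 in A/J and 0.37 in 129S1/Svlmj. The medians of the lower strains were then -0.49 in NZO/HlLtJ, -0.81 in CAST/EiJ and -0.85 in PWK/PhJ. Of single markers, the mean of Rpe65 was 2.35 cpm in NOD/ShiLtJ, between 3.53 cpm in 129S1/Svlmj and 2.15 cpm in C57BL/6J. The mean of Lrat was 1.55 cpm there, between 1.59 cpm in CAST/EiJ and 0.923 cpm in PWK/PhJ, the lowest. Dct, Rpe65, Lrat, Rdh5 and Ttr were named after their values were seen. Within A/J, the order of the 3 libraries was the same for Rgr and for the sum. Rpe65, for the isomerase of the pigment epithelium, was at 1.66, 4.61 and 7.74 cpm there. In 6 of the 8 strains the library with the lowest Rgr also had the lowest sum, and in 4 of 8 the library with the highest Rgr had the highest sum. With single markers in place of the sum the lowest and highest libraries were shared in 6 and 6 strains for Rpe65, 6 and 6 for Lrat, 4 and 7 for Rdh5 and 6 and 7 for Ttr.

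Called against the other 7 strains, the 16 pigment epithelium genes were 8 higher and 1 lower in WSB/EiJ, 7 higher and 1 lower in A/J, and 7 higher and 0 lower in 129S1/Svlmj (8 and 0 with median-ratio scaling, 5 and 0 with quantile-normalized values, 3 and 0 without the lens-rich libraries). They were 0 higher and 13 lower in CAST/EiJ (0 and 11 with quantile-normalized values), 1 and 10 in PWK/PhJ, 1 and 6 in NZO/HlLtJ, and 2 and 0 in NOD/ShiLtJ and in C57BL/6J (1 and 0 in C57BL/6J with quantile-normalized values). Single libraries moved these counts. The higher ones numbered 3 in WSB/EiJ without its replicate 1 and 5 without its replicate 3, 11 in A/J without its replicate 1 and 3 without its replicate 2 or 3, and 3 in 129S1/Svlmj without its replicate 2. They numbered 1 in NOD/ShiLtJ without its replicate 1 and 5 without its replicate 3, 0 in PWK/PhJ without its replicate 2, and 1 in C57BL/6J in 18 of the 24 fits without 1 library. The lower ones in CAST/EiJ numbered 8 without its replicate 1, and NOD/ShiLtJ had 1 lower without replicate 1 of A/J. The most abundant was Enpp2, for a secreted phospholipase, at a mean of 15.3 cpm, from 9.21 cpm in PWK/PhJ to 18.3 cpm in C57BL/6J. Pmel, a pigment granule gene, ranged from 0.445 cpm in CAST/EiJ to 6.28 ± 5.09 cpm in NOD/ShiLtJ (SD, n = 3). Without replicate 1 of NOD/ShiLtJ, at 12.1 cpm, the mean there was 3.36 cpm, and A/J was highest, at 5.02 cpm. The channel gene Kcnj13 ranged from 0.255 cpm in NZO/HlLtJ to 1.66 cpm in A/J, and the keratin gene Krt18 from 2.70 cpm in PWK/PhJ to 20.2 cpm in NZO/HlLtJ. Slc45a2, a pigment cell transporter gene, ranged from 0.0441 cpm in NZO/HlLtJ to 0.437 cpm in PWK/PhJ, or to 0.483 cpm in NOD/ShiLtJ without the lens-rich libraries. Its NZO/HlLtJ mean was at the limit of detection, 0.0384 to 0.0521 cpm over the libraries. Best1, a defining channel gene of the layer, was listed at 0 in the 6 libraries of WSB/EiJ and A/J and did not exceed 0.112 cpm elsewhere.

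Divided by the summed markers, a comparison added after the data were seen, Rgr was 31.0 ± 4.18 per 100 cpm of the list in WSB/EiJ (SD, n = 3), 27.2 ± 14.1 in A/J, 20.4 ± 0.875 in CAST/EiJ, 18.7 ± 3.24 in PWK/PhJ, 18.3 ± 2.67 in 129S1/Svlmj and 17.1 ± 3.47 in C57BL/6J. It was 10.9 ± 1.97 in NZO/HlLtJ and 7.30 ± 1.36 in NOD/ShiLtJ. In NZO/HlLtJ the keratin gene Krt18 made up 20.2 cpm of a mean sum of 53.7 cpm, and a division without Krt18 was not run. With this sum WSB/EiJ was highest and NOD/ShiLtJ lowest, as for cpm, with a ratio of 4.25 in place of 4.80, while CAST/EiJ and PWK/PhJ moved to the middle of the order. The order depended on the marker, as divisions by 1 gene at a time showed, also added after the data were seen (cpm per cpm, SD, n = 3). Divided by Rpe65, Rgr was 6.97 ± 0.633 in WSB/EiJ, 3.81 to 4.98 in the 6 strains between and 2.37 ± 0.360 in NOD/ShiLtJ, a ratio of 2.95. Divided by Lrat, for the enzyme that esterifies retinol, it was 6.10 ± 0.678 in PWK/PhJ, 6.10 ± 0.417 in WSB/EiJ, 3.62 ± 0.508 in NOD/ShiLtJ and lowest in NZO/HlLtJ, at 2.82 ± 0.489, a ratio of 2.16. Divided by Rdh5, for the 11-cis-retinol dehydrogenase, it was highest in A/J, at 8.14 ± 2.77, with WSB/EiJ at 7.27 ± 1.08, and lowest in NOD/ShiLtJ, at 3.24 ± 0.403, a ratio of 2.51. Divided by Ttr, for the carrier protein transthyretin, it was 1.93 ± 0.106 in A/J, 1.29 to 1.32 in CAST/EiJ, NZO/HlLtJ and PWK/PhJ, 1.10 ± 0.104 in WSB/EiJ and 0.514 ± 0.0392 in NOD/ShiLtJ, a ratio of 3.75.

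Of the 2 strains with the highest Rrh, CAST/EiJ had, with PWK/PhJ, the lowest marker sum (29.6 ± 1.99 cpm, SD, n = 3) and 129S1/Svlmj the highest (85.0 ± 9.76 cpm). Without the lens-rich libraries WSB/EiJ had the highest mean sum, at 83.5 ± 16.4 cpm, and the other 129S1/Svlmj libraries held 77.9 and 80.9 cpm. Within strains the library with the highest Rrh had the highest sum in 5 of 8 strains, and the one with the lowest Rrh the lowest sum in 5 of 8. For Rpe65 these were 6 and 3 strains, for Lrat 6 and 5, for Rdh5 5 and 3 and for Ttr 5 and 5. The part of the pigment epithelium in the Rgr and Rrh differences was not tested further.

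**Figure D3:**
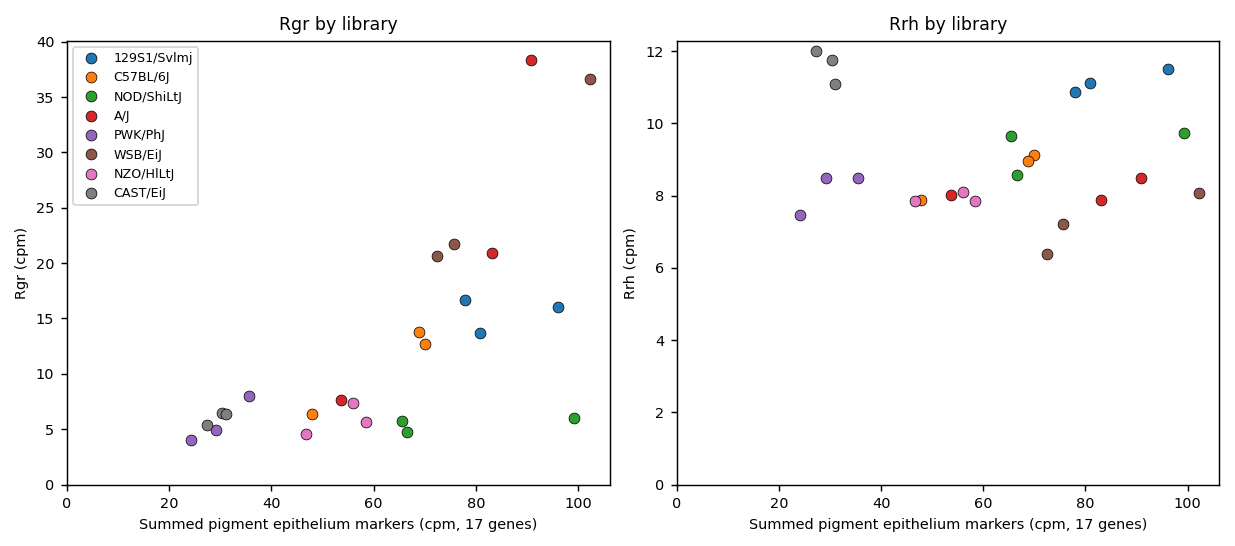
Rgr (left) and Rrh (right), in cpm on the y axes, against the summed cpm of 17 pigment epithelium genes on the x axes, with 1 point per library coloured by strain. For Rgr the points of A/J run from 7.65 to 38.4 cpm as the sum goes from 53.6 to 90.8 cpm, and for Rrh the CAST/EiJ points are highest at sums near 30 cpm.

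Other tissues and cell types of the visual cycle were measured in the same way. Of 14 Müller glia genes 14 were called by the F-test, 4 at 2-fold or more (3 without the lens-rich libraries), with a median ratio of 1.59. Those 4 were Crym, a thyroid hormone-binding protein gene (1.82 cpm in NOD/ShiLtJ, 11.9 in CAST/EiJ), the potassium channel gene Kcnj10 (6.22 cpm in C57BL/6J, 15.1 in A/J), the intermediate filament gene Vim (17.4 ± 1.48 cpm in CAST/EiJ, 36.0 ± 15.9 in 129S1/Svlmj, SD, n = 3) and Clu, for a secreted chaperone (61.8 cpm in CAST/EiJ, 124 in A/J). Vim, which the lens expresses as well, lay between 26.2 and 54.4 cpm in the 129S1/Svlmj libraries. Without the lens-rich libraries it was highest in NOD/ShiLtJ, at 28.8 cpm, with a ratio of 1.65 in place of 2.07. Clu had a ratio of 2.01, and of 1.90 without replicate 3 of A/J. Without replicate 2 of CAST/EiJ 2 of the 14 were called at 2-fold or more, Crym and Kcnj10. Glul, for glutamine synthetase, was the most abundant, at a mean of 609 cpm. In CAST/EiJ 4 of the 14 were higher and 9 lower (4 and 8 with median-ratio scaling, and 2 higher without its replicate 3), and in WSB/EiJ, the strain with the highest Rgr, 1 higher and 4 lower (1 and 3 with quantile-normalized values, 1 and 5 without the lens-rich libraries). In A/J, where Rgr was called higher, 8 were higher and 1 lower. In 129S1/Svlmj, where Rgr was also called higher, 8 were higher and 0 lower (1 and 1 without the lens-rich libraries, 0 to 9 higher in the fits without 1 library). In NOD/ShiLtJ, where Rgr was called lower, 8 were higher and 1 lower (5 and 1 without the lens-rich libraries, 4 to 8 higher in the fits without 1 library). The part of Müller glia in the Rgr differences was not tested.

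Among 15 further genes of retinoid handling, listed apart from the pigment epithelium markers though the pigment epithelium expresses some of them, 12 were called by the F-test (80%) and 4 at 2-fold or more (26.7%), with a median ratio of 1.54 (13 and the same 4 without the lens-rich libraries). WSB/EiJ, the strain with the highest Rgr and the lowest Rrh, had the highest mean of Awat2, an acyltransferase gene (0.595 cpm, against 0.0432 cpm in PWK/PhJ), and of Stra6, for the receptor by which the pigment epithelium takes up retinol from blood (1.82 against 0.705 cpm in PWK/PhJ). The Awat2 mean in PWK/PhJ was at the limit of detection, 0.0384 to 0.0521 cpm over the libraries, so the size of its fold is uncertain. Stra6 was lowest in PWK/PhJ, NZO/HlLtJ (0.720 cpm) and CAST/EiJ (0.772 cpm), the same 3 strains as for Rpe65, and its part from the pigment epithelium was not tested. WSB/EiJ had the lowest mean of Rdh8, for the photoreceptor enzyme that reduces all-trans-retinal, at 8.48 cpm against 30.0 cpm in NOD/ShiLtJ. Rbp3, for the carrier protein between retina and pigment epithelium, was the most abundant, at a mean of 751 cpm. In WSB/EiJ 3 of the 15 were called higher and 4 lower, a balance that turned to 4 higher and 2 lower under both other scalings and left 1 lower without its replicate 2.

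The cone opsins served as a reference. Opn1sw, the short-wavelength opsin gene, ranged from 60.2 cpm in CAST/EiJ to 146 cpm in WSB/EiJ, and Opn1mw, the middle-wavelength one, from 14.4 cpm in NOD/ShiLtJ to 27.5 cpm in C57BL/6J, and both were called by the F-test. Opn1mw was lowest in CAST/EiJ, at 15.1 cpm, without the lens-rich libraries. Of 15 rod genes 15 were called and 1 at 2-fold or more, with a median ratio of 1.37. That gene was Sag, for rod arrestin, at 917 cpm in C57BL/6J and 2210 cpm in NOD/ShiLtJ. Gngt1 and Pde6a, of the rod cascade, were highest in CAST/EiJ, at 543 and 730 cpm, and Nr2e3, a rod fate factor gene, was highest in NOD/ShiLtJ, at 195 cpm.

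Of 12 lens genes 11 were tested and 1 was called by the F-test (9.09%), with 0 at 2-fold or more, although the median ratio of strain means was 58.5. Without any 1 of the NOD/ShiLtJ libraries 3 were called and 2 at 2-fold or more, and without replicate 2 of C57BL/6J 2 and 1. The gene called was Hmgn3, named after its values were seen. Mip, Gja3, Lim2 and Cryaa were not called and had their highest mean in NOD/ShiLtJ, at 26.4, 2.23, 2.85 and 256 cpm. Without the lens-rich libraries 9 were tested, 9 called and 8 called at 2-fold or more, with a median ratio of 8.25, and Mip, Gja3 and Cryaa were highest in PWK/PhJ, at 0.379, 0.0836 and 26.8 cpm, and Lim2 in 129S1/Svlmj, at 0.234 cpm. Of 10 genes of the ciliary body, iris and cornea 8 were tested, and 5 were called by the F-test, all at 2-fold or more (62.5%), with a median ratio of 6.11 (5.69 without the lens-rich libraries). This count was 8 of 8 without replicate 3 of NOD/ShiLtJ and 3 of 8 without replicate 2 of A/J, and the median ratio was 3.56 without replicate 1 of NOD/ShiLtJ. Those were Krt15 and Myh11 and, named after their values were seen, Wfdc1, Acta2 and Des. The keratin genes Krt12, Krt15 and Krt5 and the corneal crystallin gene Aldh3a1 had their highest means in NOD/ShiLtJ, at 1.72, 0.428, 0.884 and 0.765 cpm. Without replicate 1 of NOD/ShiLtJ these were 0.197 cpm for Krt12, 0.237 for Krt5 and 0.425 for Aldh3a1 in NOD/ShiLtJ, and A/J was highest for Krt12, at 0.846 cpm, and for Krt5, at 0.298 cpm. Myh11, of smooth muscle and the most abundant, was highest in A/J, at 4.17 cpm. Of 6 blood genes 5 were tested, and 4 were called by the F-test and at 2-fold or more (80%), with a median ratio of 3.51 (5 and 4, with a median ratio of 4.63, without the lens-rich libraries, and 3 to 5 in the fits without 1 library). The globin genes Hba-a1, Hbb-bt and Hbb-bs were highest in NOD/ShiLtJ, at 11.0, 2.39 and 13.7 cpm, and Hba-a2 in 129S1/Svlmj, at 4.37 cpm. Hbb-bs was highest in 129S1/Svlmj, at 13.3 cpm, without the lens-rich libraries. The part of such tissue in the members' differences was not tested.

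For each tested member, the 2 protein-coding genes with the closest pattern were found by the root mean square difference of centred log2 strain means over the 8 strains. For Opn4 they were Ramp3 (0.07) and Plagl1 (0.08), where the root mean square of Opn4 about its own mean was 0.23. For Eomes they were Gpr180 and Zfp354a (both 0.05, against 0.16), and for Adcyap1 Ccdc169 (0.06) and Rims1 (0.08, against 0.22). C8g (0.12) and Nptx2 (0.15) were closest to Opn3 (0.32), and Ccdc96 and Prpf31 (both 0.09) to Rrh (0.23). For Rgr, Upk3b (0.35) and Bcl2l12 (0.37) were closest, against 0.83 for Rgr itself.

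Opn4 and Rgr kept their WSB/EiJ call, Opn4 lower and Rgr higher, with other pseudocounts, filters and scalings, without a variance trend, without the lens-rich libraries and in the 24 fits that left out 1 library. The divisions by markers carried no test of a single strain, and Rgr divided by Lrat, Rdh5 or Ttr was not highest in WSB/EiJ. Both genes lie on the same strand of chromosome 14, 2.43 Mb apart. Their promoters are shown for this reason, as the 250 bases before the annotated start, 5′ to 3′ on the gene's strand, from RefSeq on GRCm38.p6 (6 of the 7 members had an entry, and Opn5 did not). The sequences are those of the reference strain, C57BL/6J, and not of WSB/EiJ. Capitals mark matches, on either strand, to TAATCC, the core that the photoreceptor and pigment epithelium factors Crx and Otx2 bind (in 6.25% of 32,851 promoters of this length), and to GTGTGA, a T-box core of the kind that Eomes binds (12.3%). The E-box CACGTG (6.02%) and the cyclic AMP response core TGACGT (6.47%) were searched as well, and the E-box was found in 0 of the 6 members. Opn4 (chr14:34600143-34600392, minus strand) held GTGTGA at position -231, where -1 is the last base before the start. Rgr (chr14:37049015-37049264, minus strand) held TAATCC at -167 and, as TCACAC, the T-box core of the other strand at -193. Adcyap1 held GTGTGA at -192 and TGACGT at -91 (the same site is at -242 from another annotated start), and the 3 other members with an entry held none of the 4 cores. A match is a description of the letters and not a shown site.
Opn4: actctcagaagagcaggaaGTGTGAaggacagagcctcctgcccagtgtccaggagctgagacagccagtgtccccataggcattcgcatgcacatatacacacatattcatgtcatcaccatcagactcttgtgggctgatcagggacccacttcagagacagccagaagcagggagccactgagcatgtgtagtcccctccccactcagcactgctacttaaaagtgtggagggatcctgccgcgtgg
Rgr: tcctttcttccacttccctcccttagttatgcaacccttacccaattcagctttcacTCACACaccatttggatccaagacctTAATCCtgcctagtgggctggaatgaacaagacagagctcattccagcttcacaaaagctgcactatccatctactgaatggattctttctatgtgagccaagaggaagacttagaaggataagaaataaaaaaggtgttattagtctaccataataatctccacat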

How the data were processed

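The deposited values are cpm, for which the authors aligned reads to GRCm38/mm10 with STAR, quantified genes in Partek Flow by expectation-maximization, divided each count by the library's total reads and added 0.0001. Libraries came from total RNA by a stranded kit after removal of ribosomal RNA, and whether counting used the strand is not given in the sources used here. The methods name RefSeq as annotation, while the table's biotypes are of the Ensembl type. Within 0.1 of a whole read lay 90.0% to 91.9% of the low values of a library, so no count model was used. Library totals, 57,577,000 to 78,131,000 reads, were derived from the size of 1 read, and a value of 3 reads was 0.0384 to 0.0521 cpm.

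Strain means of log2(cpm + 0.1) were fitted with limma 3.58.1 in R 4.3.3 (1 mean per strain, variance trend) for the 20,447 genes whose mean reached 0.1 cpm. The moderated F-test over 8 strains and 8 contrasts of a strain with the mean of the other 7 were two-sided, with Benjamini-Hochberg adjustment over all genes of each. The procedure was tested on simulated data, where the F-test recovered 91 of 100 genes given a log2 effect of 1 and 97 of 100 given an effect of 2. Both effects were in the same simulated data, with 12 false calls in all among the unchanged genes. The values were drawn from a normal distribution on the log2 scale and not as read counts. Exons and positions came from GENCODE M21. Python 3.11.15 with pandas 2.3.3 computed the rest.

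Besides the members, the genes named were up to 4 of each list with the largest ratio of strain means, the most abundant of each list, defining markers at or near 0 and the 2 closest patterns per member, and not every gene so chosen is reported. The lists covered melanopsin signalling, melanopsin ganglion cells, all ganglion cells, PACAP and VIP, pigment epithelium, retinoid cycle, Müller glia, rods, lens, anterior eye and blood. The members and lists were chosen with earlier results of these data known. Alternatives were pseudocounts of 1 and 0.01, a mean of at least 0.5 cpm, no filter, median-ratio scaling, quantile normalization, no variance trend, a Storey q-value under 0.01 (F-test only), division by the ganglion cell list and leaving out each library. Leaving out the 3 lens-rich libraries together, dividing Rgr by the pigment epithelium list or by Rpe65, Lrat, Rdh5 or Ttr, refitting the list counts without libraries, and the length of the longest transcript were chosen after seeing the data. Phenotypes and supplementary tables were not used here.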

Additional observations from a re-analysis of the deposited data

How the results depend on the processing

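Of the 19 calls of a member in a single strain, 8 held under the 8 alternatives that gave them a test (7 for Opn3), which were other pseudocounts, filters and scalings, no variance trend and the lens-rich libraries left out, and in the 24 fits that left out 1 library, namely Opn4 in WSB/EiJ, Opn3 in A/J and PWK/PhJ, Rrh in 129S1/Svlmj, WSB/EiJ and CAST/EiJ, Rgr in WSB/EiJ and Eomes in CAST/EiJ. The divisions by marker lists and the Storey q-value gave no test of a single strain, and Eomes divided by the ganglion cell list was not lowest in CAST/EiJ (0.441, against 0.412 in C57BL/6J). The other 11 were lost in at least 1, and 0 reversed. The share of single-strain calls over all genes that held in the same way was not computed, so these counts have no background. Of 816 comparisons of single genes, 745 stayed the same, 68 lost their call and 3 moved, the ratio of strain means of Rgr divided by Rpe65 (2.95), Lrat (2.16) or Rdh5 (2.51) in place of 4.80, divisions chosen after seeing the data. A ratio could count as the same although an extreme strain changed. This was so for Rgr divided by Ttr and for Opn4, Eomes and Adcyap1 divided by the ganglion cell list. With a mean of at least 0.5 cpm required, Opn3 was not tested, 1 member was called at 2-fold or more in place of 2, and 3600 genes in place of 6222. Without the 3 lens-rich libraries, an alternative chosen after seeing the data, 1 member was called in 129S1/Svlmj in place of 3 and 0 in NOD/ShiLtJ in place of 1. Without a variance trend 1 member was called in NZO/HlLtJ in place of 2, where Rgr lost its call (adjusted p = 0.0522), and so did Rgr in 129S1/Svlmj (0.0780) and Rrh in PWK/PhJ (0.0527). With no filter the calls of Rgr in 129S1/Svlmj (0.0558), Rrh in PWK/PhJ (0.05004) and Adcyap1 in A/J (0.0612) were lost, and with a pseudocount of 1 that of Rgr in 129S1/Svlmj (0.0560). The cause of the last changes was not tested. In the fits without 1 library, the members called numbered 1 to 3 in 129S1/Svlmj, 0 to 1 in C57BL/6J, 0 to 1 in NOD/ShiLtJ, 1 to 4 in A/J, 1 to 3 in PWK/PhJ, 3 to 3 in WSB/EiJ, 0 to 2 in NZO/HlLtJ and 2 to 3 in CAST/EiJ, 5 to 6 by the F-test and 2 to 3 at 2-fold or more. Over all genes the same fits called 15,591 to 16,309 by the F-test and 6151 to 6278 at 2-fold or more. A strain with 2 libraries left takes its spread from the pooled estimate. Over all genes the calls in WSB/EiJ were 38.1% higher ones, and 49.3% after median-ratio scaling or 50.4% after quantile normalization, and in NOD/ShiLtJ 62.6%, 53.0% and 49.6%. No paired analysis was run, because the labels give no pairing of libraries between strains. The libraries were pooled for sequencing in a randomized complete block design, and the labels do not name the blocks. Depth limited Opn5 and Opn3 most. None of the alternatives addressed reads that Opn3 may share with Chml, so the Opn3 calls that held were not tested for this.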
